A study of Mus musculus with 5 samples.

Results

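The nuclei described here were those of epididymal (EWAT) and perirenal (NWAT) white fat of the mouse that carried mesothelial transcripts. A nucleus was chosen by a fixed count rule in a single-nucleus RNA sequencing library of each depot. It needed 4 or more UMIs (unique molecular identifiers, each standing for 1 captured transcript) summed over Wt1, Upk1b, Bnc1, Gpm6a, Muc16, Sntg1, Rspo1 and Lrrn4, with at least 2 of these 8 genes detected. It could hold no more than 1 UMI summed over 8 genes of other cell types, namely Pdgfra, Flt1, Ptprb, Mrc1, F13a1, Bank1, Skap1 and Acvr1c. The rule found 1406 nuclei in EWAT and 950 in NWAT, together 2356 of the 75891 nuclei that passed the filters in all 5 depots. Both depots came from 10-week-old wild type male mice on a chow diet, and each library pooled the fat of 6 mice. The protocol names the strain C57BL/6J for all depots, while the strain field of NWAT reads C57BL/8J. The mice were perfused with heparin in buffered saline, and lymph nodes were removed from the subcutaneous (SWAT) and mesenteric (MWAT) fat, not from EWAT or NWAT. MWAT, pooled from 10 mice with strain field C57BL/7J, and peri-heart fat (HWAT), pooled from 20 mice with strain field C57BL/9J, serve below as a comparison.

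Mesothelium is the flat epithelium that covers the organs and walls of the body cavities. It makes a lubricating surface with a mucin and uroplakin coat, rests on a basement membrane, and expresses the transcription factor Wt1 together with keratins and stromal genes, since it shares a mesodermal origin with the tissue beneath it. Visceral fat depots carry it on the side that faces the cavity, and subcutaneous fat has none.

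Each depot was 1 pooled library with no replicate, so no difference below has a replicate check and no test between depots was possible. All intervals are exact 95% intervals that cover counting error only. EWAT mesothelial nuclei made up 7.59% (7.22 to 7.99) of 18514 nuclei and NWAT mesothelial nuclei 7.43% (6.98 to 7.90) of 12780, so the intervals of the shares overlapped. The same rule found 2 of 12306 nuclei in SWAT, 3633 of 19768 (18.4%, 17.8 to 18.9) in MWAT and 3211 of 12523 (25.6%, 24.9 to 26.4) in HWAT. The EWAT and NWAT mesothelial nuclei had similar depth, with medians of 2077.5 and 2198 UMIs and of 1354 and 1413.5 genes. Their summed counts were 3139826 and 2236461 UMIs, on which the expression values below rest as CPM (a gene's share of the summed UMIs, scaled to 1000000). Median mitochondrial shares were 0.270% and 0.460%, and 64 barcodes were shared by the 2 libraries, 1 of them between the chosen nuclei.

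The values that chose the nuclei are a description only. The 8 rule genes summed to a median of 10 UMIs per nucleus in EWAT and 13 in NWAT, with quartiles of 7 to 14 and 9 to 19. Of the nuclei, 1091 in EWAT and 775 in NWAT had no UMI of the 8 excluded genes, and 315 and 175 had 1. Just inside the limit, 105 EWAT and 36 NWAT nuclei had 4 marker UMIs, and their Upk3b level was 609 and 976 CPM. Just outside it, 107 and 35 nuclei had 3 marker UMIs, and Upk3b was 388 and 771 CPM. A further 247 and 133 nuclei met the marker limit but held too many excluded UMIs, at medians of 3693 and 4316 UMIs, and Upk3b was 373 and 449 CPM. In the nuclei with at most 1 UMI of the rule genes, called other nuclei below, Upk3b was 18.2 and 7.80 CPM.

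The label was set beside 16 mesothelial markers that the rule did not count. Of these, 4 are among the given markers, which were chosen with results of these data known. The lists were also chosen with earlier results known, so all these levels are a description and not an independent check. The sums and counts below include the 4 given markers. The 16 markers summed to 14127 CPM in EWAT and 16027 CPM in NWAT mesothelial nuclei, against 390 and 326 CPM in the other nuclei. All but Calb2, which had no UMI in either sum, were detected, and 12 of 16 in EWAT and 14 of 16 in NWAT stood 10-fold or more above the other nuclei. Markers of most other cells were present at lower levels than in the other nuclei. The 10 adipocyte markers summed to 2042.5 and 2136 CPM (12935 and 15313 in the other nuclei), the 10 endothelial markers to 184 and 141 CPM (1128 and 1060), and the 10 macrophage or monocyte markers to 537 and 592 CPM (1811 and 2362). The 7 B cell markers summed to 254 and 318 CPM (3643 and 3077). The 8 pericyte or smooth muscle markers summed to 175 and 169.9 CPM (231 and 167), so in NWAT they were not lower. There 3 of the 8 stood above the other nuclei, 1 of them 10-fold. The 8 Schwann or glial markers were higher than in the other nuclei, at 215 and 280.4 CPM against 37.3 and 66.1, with Mbp, a myelin gene, at 191 and 248 CPM and the defining glial factor Sox10 at 0 in both. The list of 10 stromal progenitor genes was higher than in the other nuclei, at 9771 and 12772 CPM against 1315 and 1469. In EWAT 6 of the 10 stood above the other nuclei, led by the proteoglycan Dcn at 4316 and 8216 CPM and the collagen Col3a1 at 3086 and 2409.6 CPM. Skeletal muscle transcripts marked the NWAT library, where 8 muscle markers summed to 290 CPM in the mesothelial nuclei and 520 in the others, against 15.3 and 12.6 in EWAT. In NWAT 12 mesothelial nuclei held 3 or more muscle UMIs, and 1 of them held 369 of the 648. Of 8 markers each of epididymal or tubal epithelium, multiciliated cells, kidney tubule and adrenal cortex, the summed levels were at most 170 CPM in EWAT and 157 CPM in NWAT. The kidney sums of 170 and 157 CPM stood above the 15.5 and 1.87 CPM of the other nuclei. The epithelial sums were 141 and 92.1 CPM against 118 and 2.45. The multiciliated sums (37.6 and 13.9 CPM against 73.1 and 15.9) and the adrenal sums (53.5 and 56.3 against 180 and 143) were lower than in the other nuclei. The endocytic receptor Lrp2 (159 and 153 CPM) made up most of the kidney sum and the chloride channel Cftr (77.7 and 87.6 CPM) most of the epithelial one, while the defining kidney genes Umod, Slc12a1, Slc12a3 and Kap were at 0 in both.

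The 6 markers given for these nuclei were Wt1 and Upk1b, which the rule used, and Upk3b, Fgf1, Rbfox1 and Nxph1, which it did not. Since they were chosen with results of these data known, their levels are a description. Wt1, a zinc finger factor of mesothelium and gonad, was 575 CPM (549 to 602) in EWAT, against 571 CPM (541 to 604) in NWAT, where the intervals overlapped. Upk3b, a uroplakin of the apical membrane, was 703 CPM (674 to 733) in EWAT, against 1180.0 CPM (1135 to 1226) in NWAT, and Upk1b, its tetraspanin relative, was 847 and 985 CPM. Fgf1, a growth factor without a signal peptide, was 1168 CPM (1130.1 to 1206) and 1028 CPM (986 to 1071). Rbfox1, a splicing factor best known from neurons and muscle, was 1841 CPM (1794 to 1889) in EWAT, against 3061 CPM (2989 to 3134) in NWAT, 1.66-fold (1.61 to 1.72) higher in NWAT. Nxph1, a secreted ligand of neurexins, was 743 CPM (713 to 773) and 1089 CPM (1046 to 1133), 1.47-fold (1.38 to 1.55) higher in NWAT. None of the 6 was 2-fold apart between the 2 depots. Among the rule genes Sntg1, a syntrophin, was 2.35-fold (2.24 to 2.48) higher in NWAT. The rule counted Sntg1, Wt1 and Upk1b to choose the nuclei, so their ratios are a description only. Rule genes were left out of the genes compared below.

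**Figure D1:**
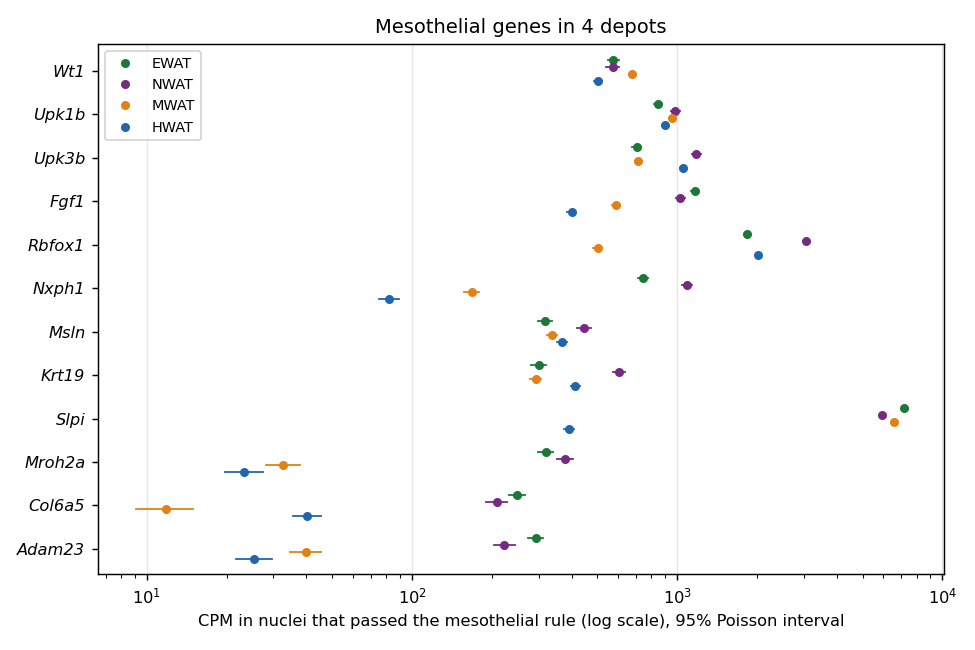
Levels of mesothelial genes (CPM, log axis) in the nuclei that passed the rule in EWAT, NWAT, MWAT and HWAT, with points for the summed level and bars for the 95% Poisson interval. Nxph1, Mroh2a, Col6a5 and Adam23 lie higher in EWAT and NWAT than in MWAT and HWAT, and Slpi lies lowest in HWAT.

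Shares of nuclei with a UMI were compared after thinning each nucleus to 1000 UMIs, which left out 88 EWAT and 29 NWAT nuclei. Upk3b was then detected in 47.9% (45.1 to 50.6) of EWAT and 67.2% (64.1 to 70.2) of NWAT mesothelial nuclei. Before thinning the shares were 68.7% and 85.2%. In endothelial nuclei of the same libraries, which should lack the gene, the thinned shares were 2.03% and 0.695%. Rbfox1 was detected in 61.7% (59.0 to 64.3) and 74.3% (71.3 to 77.1), against 1.19% and 0.695% of endothelial nuclei, and Nxph1 in 30.9% (28.4 to 33.5) and 43.3% (40.1 to 46.6), against 0.596% and 0.618%. Median depths before thinning were 1654 and 1782 UMIs in the endothelial nuclei. The order of the depots in these shares was that of the CPM values, and Nxph1 was undetected in most thinned nuclei of both depots.

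Beyond the rule genes, 15 genes were taken as those with the largest ratio to the other nuclei in both libraries. These ratios belong to the contrast that chose the nuclei and are given without weight. Il1rapl1, a synaptic adhesion receptor, was 1369 CPM in EWAT and 1341 in NWAT mesothelial nuclei, against 16.6 and 3.86 in the others. Nlgn1, a neuroligin, was 911 and 925 against 12.4 and 3.83, and Spock3, a secreted proteoglycan, 186 and 190.5 against 2.17 and 0.864. The intervals of the EWAT to NWAT ratio held 1 for these 3, for Sorcs1 of the sortilin receptor family (255 and 231 CPM) and for Tmem132d (97.1 and 92.1 CPM). Fras1, an extracellular protein that anchors epithelium to its basement membrane, was 475 CPM in EWAT and 242 in NWAT, 1.96-fold (1.78 to 2.17) higher in EWAT. The potassium channel Kcnd2 was 219.8 and 467 CPM, 2.13-fold (1.93 to 2.34) higher in NWAT. Chst4, a sulfotransferase that modifies mucin glycans, was 135 and 249 CPM. The rest of the 15 were Gm765, Gm16341, G930009F23Rik, Pcnx2 and 1700020G17Rik, with Rbfox1 and Nxph1.

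The main comparison asked how the mesothelium of the epididymal depot differed from that of the perirenal one. Among 10534 genes with 50 or more UMIs over both sums, 418 (3.97%) were 2-fold or more higher in EWAT mesothelial nuclei and 243 (2.31%) in NWAT. The median log2 ratio of EWAT over NWAT was -0.02, so the bulk of the transcriptome was centred. The 2-fold limit is a size rule, not a test. The 15 genes with the largest ratio each way were named by a rule that asked for 30 UMIs in the higher depot and a level there of at least 2 times that of the other nuclei.

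Igfbp2, a secreted binding protein of insulin-like growth factors, had the largest ratio towards EWAT (chr1:72824503-72852474). It was 108 CPM (96.5 to 119.8) in EWAT from 338 UMIs, against 2.68 CPM (0.985 to 5.84) in NWAT from 6 UMIs, 40.1-fold (18.2 to 110.1) higher in EWAT. After thinning it was found in 9.48% (7.96 to 11.2) of EWAT mesothelial nuclei and 0.239% of endothelial nuclei, and in 0 of 921 NWAT mesothelial nuclei (up to 0.400%). Unthinned shares of the mesothelial nuclei were 16.5% and 0.526%, at the median depths given above. At this depth a nucleus without a UMI may still express the gene. Its MWAT and HWAT levels were 57.9 and 6.03 CPM. Nalcn, the sodium leak channel, was 135 CPM (122 to 148) in EWAT, against 25.04 CPM (18.9 to 32.5) in NWAT, 5.38-fold (4.06 to 7.24) higher in EWAT, and 15.7 and 2.01 CPM in MWAT and HWAT (chr14:123276634-123627144). Nkain2, a protein that interacts with the sodium pump, was 52.9 CPM (45.1 to 61.6) against 5.37 CPM (2.77 to 9.37), 9.85-fold (5.49 to 19.5) higher in EWAT, and Grm8, a metabotropic glutamate receptor, 39.8 CPM (33.1 to 47.4) against 6.71 CPM (3.75 to 11.1), 5.94-fold (3.46 to 10.9) higher in EWAT. Both came from few nuclei, since 67 EWAT nuclei held the UMIs of Nkain2 and 63 those of Grm8. Ltbp2, a microfibril protein of the latent TGF-beta binding family, was 32.5 CPM in EWAT from 102 UMIs and 1.34 in NWAT from 3, 24.2-fold (8.06 to 119) higher in EWAT. Lpcat2, an acyltransferase of membrane lipid remodelling, was 21.7 and 3.58 CPM, and the transcript Gm29502 20.4 and 3.58 CPM.

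Most of the 15 that had 50 UMIs in another class of nuclei were also EWAT-higher there, Nalcn among them at 2.89 and 0.541 CPM in adipocyte nuclei. Hspb1, a small heat shock protein, was 773 CPM (743 to 805) in EWAT, against 68.9 CPM (58.4 to 80.6) in NWAT mesothelial nuclei, 11.2-fold (9.54 to 13.3) higher in EWAT. In nuclei gated as endothelial it was 1480.0 and 123 CPM, and in those gated as adipocyte 77.9 and 8.15 CPM. Igfbp7, a secreted binding protein, was 1426 CPM (1385 to 1469) and 266 CPM (246 to 289), 5.35-fold (4.91 to 5.84) higher in EWAT, and 1535 and 252 CPM in gated stromal progenitors. The secreted neurotrophic protein Nenf was 335 and 33.98 CPM in mesothelial and 225 and 26.7 in progenitor nuclei, and the metallothionein Mt2 was 420.1 and 57.2 in mesothelial and 195 and 37.1 in adipocyte nuclei. The membrane proteins Tmem238 and Tmem160 (49.4 and 2.24, 99.05 and 14.8 CPM), the ubiquitin ligase Trim59 (14.7 and 1.79 CPM) and Eid2, an inhibitor of differentiation (14.97 and 2.68 CPM), complete the 15. In adipocyte nuclei Trim59 had 33 and 6 UMIs, under the limit of 50, and Eid2 6.94 and 1.41 CPM. Ltbp2 went the other way in adipocyte nuclei, at 9.42 and 14.8 CPM. A gate here took 4 or more UMIs over 4 genes of a class with 2 detected, at most 1 UMI of the rule genes and at most 1 of the excluded genes of other classes. Of the 15 genes, 9 of 11 with 50 UMIs in adipocyte nuclei were also 2-fold higher in EWAT there, 6 of 6 in stromal progenitor, 6 of 7 in endothelial and 5 of 5 in macrophage nuclei. Of all 418 genes, 253 of 392 (64.5%) were so in adipocyte nuclei, where 8.51% of all genes compared were 2-fold higher in EWAT. The share was 62.8% beside 4.90% in progenitor nuclei, 58.4% beside 4.67% in endothelial nuclei and 59.3% beside 4.26% in macrophage nuclei. The difference between the libraries and the difference between the depots cannot be told apart.

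**Figure D2:**
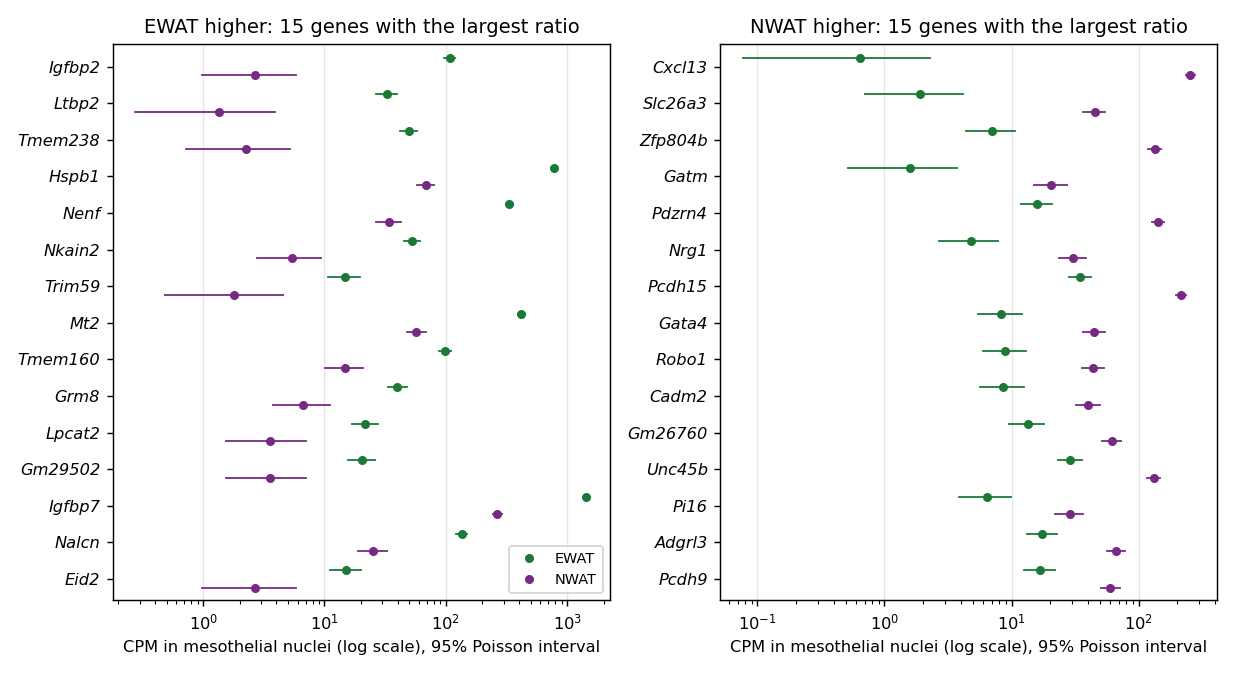
Levels (CPM, log axis) of the 15 genes with the largest ratio in each direction in EWAT and NWAT mesothelial nuclei, with bars for 95% Poisson intervals. In both panels the intervals of the 2 depots do not overlap, and the genes were chosen by that ratio.

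Cxcl13, the chemokine that draws B cells into lymphoid clusters, had the largest ratio towards NWAT (chr5:95956951-95961068). It was 0.637 CPM (0.0771 to 2.30) in EWAT from 2 UMIs, against 255 CPM (235 to 277) in NWAT from 571 UMIs, 401-fold (110.5 to 3318) higher in NWAT. The NWAT UMIs lay in few nuclei, since after thinning 34 of 921 (3.69%, 2.57 to 5.12) held any and the 10 highest held 80.1% of them. In endothelial nuclei of NWAT the thinned share was 1.85%, and before thinning the shares were 5.37% and 3.88%. NWAT nuclei gated as stromal progenitors had 215 CPM and those gated as macrophages 93.2, against 0 and 3.44 in EWAT. Cxcl13 was thus also higher in NWAT in these other classes. In MWAT and HWAT mesothelial nuclei it was 57.7 and 1154 CPM.

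Zfp804b, a zinc finger protein, was 7.01 CPM (4.39 to 10.6) in EWAT, against 134 CPM (119 to 149.7) in NWAT mesothelial nuclei, 19.1-fold (12.4 to 30.9) higher in NWAT, and 1.11 and 1.27 CPM in the other nuclei. Pdzrn4, a ubiquitin ligase with PDZ domains, was 15.9 CPM (11.8 to 20.99) and 142 CPM (127 to 159), 8.93-fold (6.61 to 12.3) higher in NWAT, with 5.96 and 5.41 CPM in the other nuclei (chr15:92396881-92771819). Gm26760, a transcript that lies beside it on the same chromosome, was 13.4 and 61.3 CPM. Pcdh15, a protocadherin known from hair cell tip links, was 34.7 CPM (28.5 to 41.9) and 214 CPM (195 to 234), 6.17-fold (5.001 to 7.67) higher in NWAT, detected in 3.34% and 17.3% of thinned mesothelial nuclei against 0.298% and 0.309% of endothelial nuclei (4.98% and 26.9% of mesothelial nuclei unthinned). Gata4, a zinc finger factor of heart, gonad and coelomic epithelium, was 8.28 CPM (5.41 to 12.1) and 44.7 CPM (36.4 to 54.4), 5.40-fold (3.48 to 8.66) higher in NWAT, and 1.06 and 48.7 CPM in MWAT and HWAT (chr14:63198922-63271692). Slc26a3, an exchanger of chloride and bicarbonate, was 1.91 CPM (0.701 to 4.16) and 45.2 CPM (36.8 to 54.9), 23.6-fold (10.5 to 65.9) higher in NWAT, with the opposite order in the other nuclei (5.64 and 0.288 CPM). Unc45b, a chaperone for muscle myosin, was 28.98 CPM (23.3 to 35.6) and 131 CPM (116 to 147), 4.52-fold (3.56 to 5.78) higher in NWAT, and 56.9 and 73.4 CPM in endothelial nuclei. Leaving out the nuclei with 3 or more muscle UMIs gave Unc45b a log2 ratio of -2.17, the same as with them. That step removed only 12 of 950 NWAT nuclei, while 77.8% of the NWAT mesothelial nuclei held no muscle UMI. It could thus not remove muscle UMIs spread thinly over the rest, and their part in the Unc45b level was not tested. Robo1, a receptor of Slit proteins, was 8.92 and 43.8 CPM, the adhesion molecule Cadm2 8.60 and 40.2, the latrophilin Adgrl3 17.5 and 66.2, and the protocadherin Pcdh9 16.9 and 59.9. The growth factor Nrg1 was 4.78 and 30.4 CPM. Gatm, an enzyme of creatine synthesis, was 1.59 and 20.6 CPM, and Pi16, a marker of interstitial stromal progenitors, 6.37 and 28.6 CPM. For Gatm and Pi16 the 10 highest NWAT nuclei held 95.2% and 84.6% of the thinned UMIs, so their values rested on 11 and 14 thinned nuclei with a UMI. Of the 85 named or listed genes called at 2-fold between EWAT and NWAT here and below, 38 kept the call under each of 12 other settings. A call needed the minimum of UMIs as well as the ratio, so a lost call need not be a lost ratio. Of the 15 NWAT-higher genes, 2 of 13 that could be compared were 2-fold higher in NWAT adipocyte nuclei too. Of all 243 genes 51 of 210 (24.3%) were, beside 3.52% of all genes compared there. In progenitor nuclei the share was 33.3% beside 3.27%, in endothelial nuclei 39.0% beside 3.63% and in macrophage nuclei 38.7% beside 2.21%.

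In all, 18 lists of genes by function were then read in the same comparison, each beside the 3.97% and 2.31% of all genes that were 2-fold apart and the median of -0.02. Of the surface, secreted and keratin genes of mesothelium, 23 could be compared, 2 were EWAT-higher, 1 was NWAT-higher, and the median log2 ratio was -0.22. Crip1, a small LIM protein, was 2899.5 CPM in EWAT and 1214 in NWAT, and the simple-epithelium keratin Krt19 was 301 and 604, at the 2-fold limit. Mesothelin (Msln) was 318 and 446 CPM, the keratins Krt7, Krt8 and Krt18 106 and 167, 85.04 and 99.3, and 101 and 139.9 CPM, and podoplanin (Pdpn) 289 and 284 CPM, all within 2-fold. Crip1 was also 2-fold higher in EWAT in gated endothelial nuclei (1155 and 482 CPM).

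Developmental transcription factors differed little as a list, with 35 compared, 1 EWAT-higher, 2 NWAT-higher and a median of 0.10. Twist1, a helix-loop-helix factor of mesenchyme, was 30.6 CPM in EWAT and 11.2 in NWAT. Ebf2, a factor of the adipocyte lineage, was 28.03 and 106 CPM, but 65.3% of its thinned NWAT UMIs lay in 10 nuclei, and gated progenitors had 1333 and 1726 CPM. Gata4 was the other NWAT-higher gene, and its relatives Gata5 and Gata6 were 32.8 and 16.99 and 238 and 224 CPM. Both were within 2-fold, and Gata5 leaned to EWAT, opposite to Gata4. Osr1, a factor of intermediate and lateral mesoderm, was 394 and 673 CPM, and Tbx18 24.8 and 44.3 CPM.

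Hox genes, which give cells their position along the body axis, were mostly alike in the 2 depots. Of 39 Hox genes, 14 reached 50 UMIs, and all but Hoxd8 and Hoxa9 were within 2-fold, with a median of 0.04. Hoxa5 was 77.1 CPM in EWAT and 79.1 in NWAT, Hoxc6 84.1 and 92.1, and Hoxa3 105 and 118. Hoxa9 had 66.2 CPM (55.9 to 77.7) in NWAT and 17.2 CPM (12.9 to 22.4) in EWAT, 3.85-fold (2.80 to 5.36) higher in NWAT, and Hoxa7 48.7 CPM in EWAT and 81.4 in NWAT. Hoxd8 was 16.9 and 8.05 CPM. Of the genes under the limit, Hoxa10 had 12 and 32 UMIs and Hoxc10 had 1 and 13. Hoxa9 also differed in the other classes, at 2.21 and 72.5 CPM in adipocyte and 3.35 and 72.1 CPM in progenitor nuclei. Neighbouring Hox genes overlap, and whether the counting used strand is not given in the sources used here, so reads of Hoxc4 to Hoxc6 and of Hoxd3 and Hoxd4 may be split between them.

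**Figure D3:**
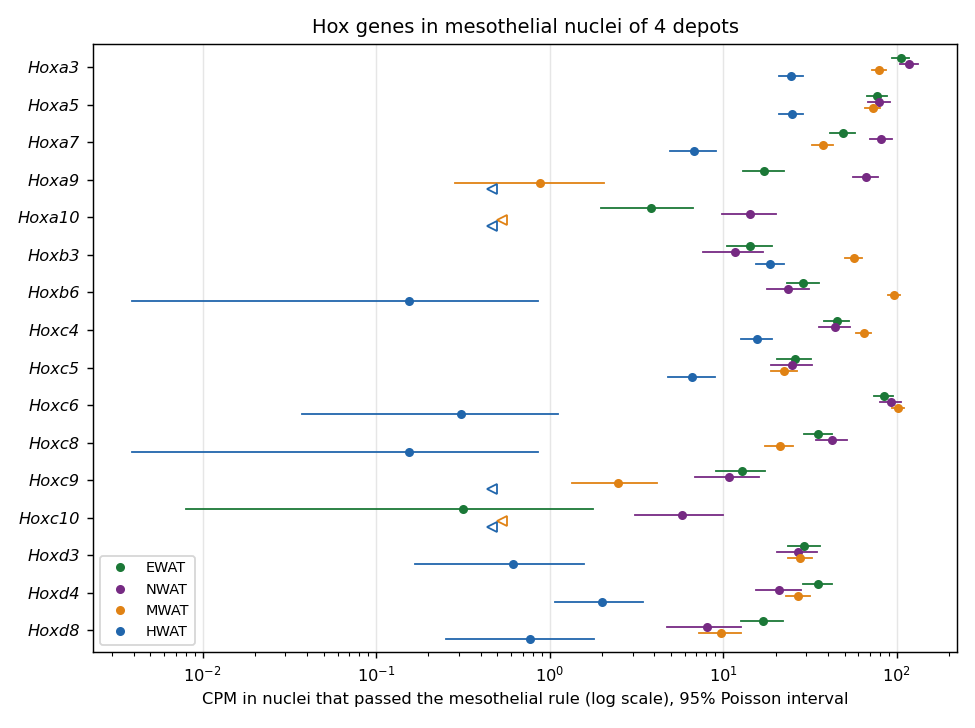
Levels (CPM, log axis) of 16 Hox genes in mesothelial nuclei of EWAT, NWAT, MWAT and HWAT, with 95% Poisson intervals; open triangles mark the level of 3 counts where no UMI was seen. EWAT and NWAT lie close together for most genes, Hoxa9, Hoxa10 and Hoxc10 lie apart with NWAT highest, and HWAT lies lowest or has no UMI for every gene shown but Hoxb3.

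Signalling genes were read by pathway. Of 12 FGF genes compared, 3 were EWAT-higher and 1 NWAT-higher, with a median of 0.43. Fgf18, a secreted ligand, was 41.1 CPM in EWAT and 13.9 in NWAT, and the decoy-like receptor Fgfrl1 17.5 and 6.26. Fgf13 and Fgf14, intracellular partners of sodium channels, went opposite ways, at 22.9 and 4.92 and 47.5 and 116 CPM. The secreted Fgf9 (193 and 153 CPM) and the receptors Fgfr1 (107 and 153) and Fgfr2 (168 and 167) were within 2-fold. Fgf13 had a UMI in 15 thinned EWAT nuclei, and its log2 ratio of 2.17 became -0.32 when nuclei were thinned before the rule.

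Of 39 genes of TGF-beta and BMP signalling, 5 were EWAT-higher and none NWAT-higher, with a median of 0.19. Follistatin (Fst), an antagonist of activins, was 132 CPM (120.1 to 146) in EWAT, against 31.7 CPM (24.8 to 40.04) in NWAT, 4.17-fold (3.24 to 5.45) higher in EWAT, while in gated progenitors it was 49.6 and 99.98 CPM, the opposite order. The ligand Bmp3 was 18.2 and 4.02 CPM and Tgfb1 14.01 and 6.26 CPM. Bmper, a secreted BMP modulator, was 21.98 and 9.39 CPM, with 232 and 99.4 CPM in the other nuclei of these libraries, and its log2 ratio of 1.20 became -0.43 when the other nuclei's profile was subtracted and -0.75 when nuclei were thinned before the rule. The remaining gene of the 5 was Ltbp2. Bmp4 (213 and 215 CPM) and the inhibitor of differentiation Id3 (326 and 407) were within 2-fold. Of 26 Wnt genes, 2 were EWAT-higher, the ligand Wnt4 (28.03 and 12.97 CPM) and the secreted antagonist Sfrp2 (101 and 32.2 CPM), with a median of 0.21. The Wnt target Axin2 was 41.4 and 25.5 CPM. Of 14 retinoid genes, the receptor Rarb (13.1 and 27.7 CPM) was NWAT-higher and Rarres1 (12.7 and 5.37 CPM) EWAT-higher, with a median of -0.25. The retinaldehyde dehydrogenases Aldh1a1 (833 and 672 CPM) and Aldh1a2 (143 and 182 CPM) were within 2-fold.

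Of 52 basement membrane and matrix genes, 4 were EWAT-higher and 3 NWAT-higher, with a median of 0.21. Elastin (Eln) was 520.1 CPM (495 to 546) in EWAT, against 259 CPM (239 to 281) in NWAT, at the 2-fold limit. Col8a1, a short-chain collagen of vessels and basement membranes, was 48.7 and 5.81 CPM, with 452 and 269 in endothelial nuclei. Thbs1 (22.6 and 4.47 CPM), a thrombospondin, and the laminin chain Lama3 (33.4 and 15.2 CPM) were the other EWAT-higher genes. Towards NWAT stood Col14a1, a fibril-associated collagen (83.1 and 235 CPM), the giant matrix protein Hmcn1 (123 and 285 CPM) and periostin, Postn (4.78 and 17.4 CPM). In progenitor nuclei Col14a1 had the opposite order, at 442 and 210.2 CPM. The basement membrane collagens Col4a5 (355 and 309 CPM) and Col4a6 (368 and 344 CPM) and Nid2 (297 and 339 CPM) were within 2-fold. Among 35 genes of epithelial junctions and polarity, the cadherin Cdh12 (15.6 and 52.8 CPM) was the only 1 past 2-fold, and the claudins Cldn10 (306 and 501 CPM) and Cldn15 (240.1 and 460.1 CPM) stayed within it.

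Neural-type adhesion and synaptic genes differed in both directions, with 6 EWAT-higher and 6 NWAT-higher of 31 compared and a median of 0.06. Towards EWAT, beside Nkain2 and Grm8, stood the adhesion molecule Ncam1 (16.9 and 4.47 CPM), the scaffold Dlg2 (159.6 CPM (146 to 174) and 70.2 CPM (59.6 to 82.1)), Adgrl2 (30.6 and 13.9 CPM) and Il1rapl2 (16.2 and 5.37 CPM). Towards NWAT stood Pcdh15, Cadm2, Adgrl3, Pcdh9, Fgf14 and the glutamate receptor subunit Gria4 (9.55 and 21.02 CPM). So the latrophilins Adgrl2 and Adgrl3 went opposite ways, while Il1rapl1, Nlgn1 and the receptor phosphatase Ptprd (1264 and 1163 CPM) were within 2-fold. Of 28 axon guidance genes, the ligand Slit2 (103 CPM (92.3 to 115) and 41.6 CPM (33.6 to 50.9)) was EWAT-higher and its receptor Robo1 NWAT-higher. Sema3d (26.8 and 55.4 CPM), Sema3e (7.01 and 18.8 CPM) and the ephrin receptor Ephb1 (33.1 and 70.6 CPM) were NWAT-higher.

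Complement, chemokine and interferon genes leaned to NWAT, with 0 EWAT-higher and 5 NWAT-higher of 42 and a median of -0.32. The class I antigens H2-D1 and H2-K1 were 592 CPM (565 to 619.6) and 1720.1 CPM (1666 to 1775), and 477 CPM (454 to 502) and 1234 CPM (1189 to 1282). As near-identical family members they may share reads. Their order was the same in the other classes, with H2-D1 at 1005 and 2748 CPM in endothelial and 326 and 1328 CPM in progenitor nuclei. The interferon-induced factor Irf7 was 26.8 and 56.3 CPM. C1qa, a complement chain made by macrophages, was 38.2 and 76.9 CPM, at the 2-fold limit and beside macrophage markers of 537 and 592 CPM, whose part in it was not tested. Complement C3 was 1299 CPM (1259.9 to 1339.9) and 2122 CPM (2063 to 2184), which is under 2-fold, while in progenitor nuclei it was 586 and 605 CPM. In this list Cxcl13 was the fifth gene, and Lcn2, a lipocalin of host defence, leaned to EWAT at 185 and 109 CPM.

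**Figure D4:**
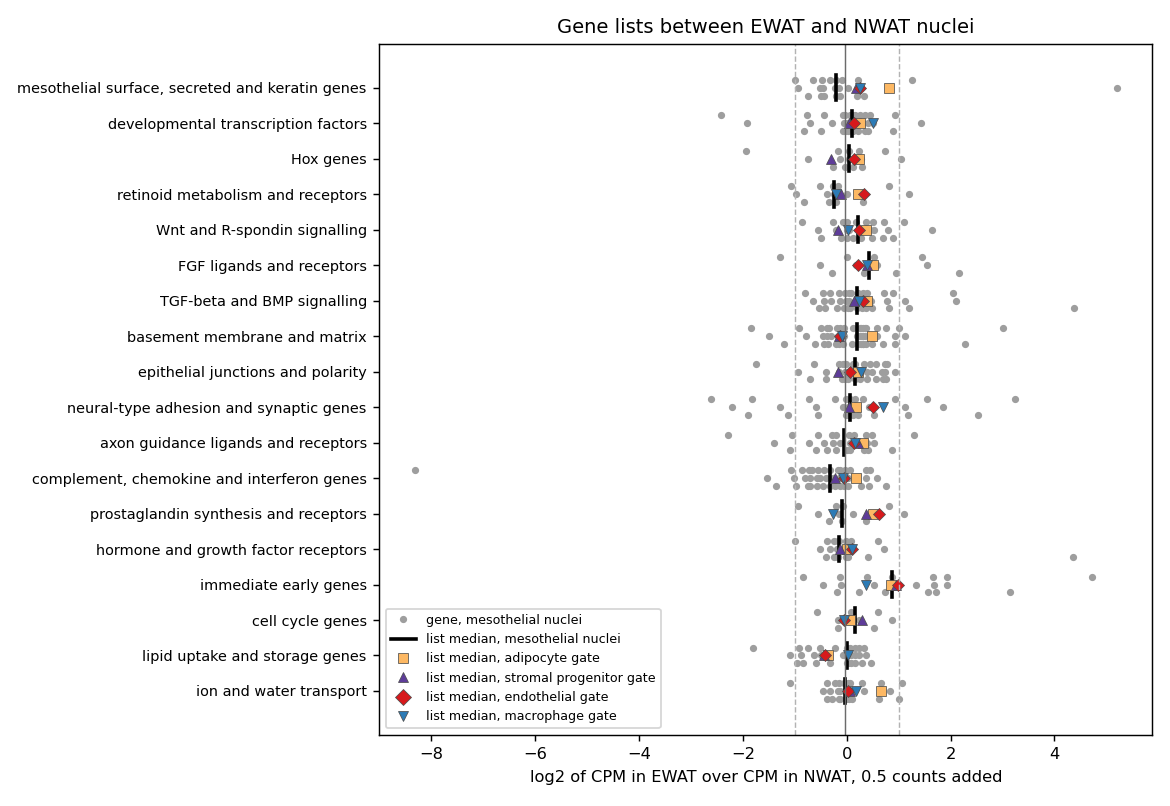
log2 ratio of EWAT over NWAT (0.5 counts added) for each gene of 18 function lists in mesothelial nuclei (grey points), the list median (black bar) and the list medians in 4 other gated classes (coloured); dashed lines mark 2-fold and the solid line the median over all genes. The immediate early list stands right of the others at 0.86, with the adipocyte, progenitor and endothelial medians between 0.86 and 0.996.

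Immediate early genes, which respond within minutes to growth factors, stress or handling, were the list with the highest share of EWAT-higher genes, 9 of 19 compared with none NWAT-higher and a median of 0.86. Fos was 73.6 CPM (64.4 to 83.7) in EWAT, against 29.1 CPM (22.4 to 37.04) in NWAT, 2.53-fold (1.91 to 3.39) higher in EWAT, and Jun 93.6 and 31.3 CPM. Klf2, a factor induced by flow, was 161 and 50.97 CPM, the phosphatase Dusp1 56.7 and 16.99, and Fosb 14.3 and 3.58. Jund was 172 and 19.2 CPM. The secreted matricellular proteins Ccn1 and Ccn2, targets of the YAP and TEAD pathway, are known from matrix. Ccn1 was 124 CPM (112 to 137) and 32.2 CPM (25.2 to 40.5). Ccn2 was 41.4 CPM (34.6 to 49.2) from 130 UMIs and 1.34 CPM (0.277 to 3.92) from 3. Other members were within 2-fold, since Klf6 was 88.2 and 158 CPM, Btg2 75.2 and 103, and Junb 155 and 108. The list's median was 0.86 in gated adipocyte nuclei, 0.96 in stromal progenitors, 0.996 in endothelial and 0.38 in macrophage nuclei, so the other classes shared the direction. In MWAT and HWAT mesothelial nuclei Fos was 25.5 and 186 CPM.

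Since these genes were higher together, the 250 bases before the start of 4 of them, picked from those that hold the motif, are shown from RefSeq (GRCm38.p6), 5′ to 3′ on the strand of the gene. Capitals mark TGACG or its reverse complement CGTCA, the core of the cAMP response element, searched on both strands. Fos lies at chr12:85473640-85473889 on the plus strand, Fosb at chr7:19310046-19310295, Dusp1 at chr17:26508473-26508722 and Ccn1 at chr3:145649986-145650235, all 3 on the minus strand.
Fos: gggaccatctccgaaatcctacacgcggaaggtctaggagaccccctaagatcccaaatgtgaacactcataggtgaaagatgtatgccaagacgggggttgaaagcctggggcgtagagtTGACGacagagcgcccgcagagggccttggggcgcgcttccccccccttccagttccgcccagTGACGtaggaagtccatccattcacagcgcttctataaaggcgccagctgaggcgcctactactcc
Fosb: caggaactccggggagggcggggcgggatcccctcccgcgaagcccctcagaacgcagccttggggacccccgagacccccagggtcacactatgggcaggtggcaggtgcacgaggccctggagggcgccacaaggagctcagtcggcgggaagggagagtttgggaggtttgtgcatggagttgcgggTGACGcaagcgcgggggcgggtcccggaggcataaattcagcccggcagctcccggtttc
Dusp1: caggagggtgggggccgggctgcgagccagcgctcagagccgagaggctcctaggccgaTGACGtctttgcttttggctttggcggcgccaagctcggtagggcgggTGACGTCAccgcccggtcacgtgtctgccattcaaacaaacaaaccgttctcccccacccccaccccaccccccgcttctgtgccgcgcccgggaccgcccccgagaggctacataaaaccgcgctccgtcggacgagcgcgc
Ccn1: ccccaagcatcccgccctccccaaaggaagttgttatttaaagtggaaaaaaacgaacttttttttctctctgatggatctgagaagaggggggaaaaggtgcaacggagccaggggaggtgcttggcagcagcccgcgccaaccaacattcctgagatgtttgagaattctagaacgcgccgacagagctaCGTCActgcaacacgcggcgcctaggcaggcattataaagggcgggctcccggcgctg
Dusp1 held 3 matches, 2 of which overlap as a palindrome 143 bases before the start, Fos held 2, at 129 and 66 bases, Fosb held 1 at 60 and Ccn1 held 1 at 58. Of the 9 EWAT-higher genes, 7 matched the RefSeq table, 5 of the 7 held a match and the other two held none. Of all 27 genes of the list 21 matched the table and 13 held a match. A match in this window was held by 19.8% of all genes with a RefSeq promoter. A match describes these letters only.

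The remaining lists held few differences. Of 24 hormone and growth factor receptors, 1 was past 2-fold, the orphan receptor Esrrg (22.9 and 0.894 CPM, from 72 and 2 UMIs), with a level of 47.2 and 12.3 CPM in the other nuclei. Its call was lost under 7 of 12 other settings, while its log2 ratio of 4.37 stayed at 3.38 or more. The oestrogen receptor Esr1 (329 and 248 CPM) and the growth hormone receptor Ghr (950.4 and 896 CPM) were within 2-fold. Of 30 lipid genes, fatty acid synthase Fasn (29.3 and 103 CPM) and the droplet protein Plin3 (30.3 and 64.4 CPM) were NWAT-higher. Fasn was 77.2 and 377 CPM in adipocyte nuclei and 30.7 and 292 CPM in endothelial nuclei, so its order was the same there. Of 28 ion and water transport genes, Cacna1c (50.3 and 25.04 CPM) and Trpm3 (12.4 and 5.81 CPM), both calcium-permeable channels, were EWAT-higher and Kcnd2 NWAT-higher. The log2 ratio of Trpm3 was 1.06 and became -0.85 when nuclei were thinned before the rule. The chloride channels Ano1 (716 and 799 CPM) and Cftr (77.7 and 87.6 CPM) were within 2-fold. Of 11 prostaglandin genes, Ptges2 (13.7 and 6.26 CPM) was EWAT-higher, and the prostacyclin synthase Ptgis was 568 and 627 CPM. None of 8 cell cycle genes was past 2-fold, and Top2a was 14.97 and 10.3 CPM.

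Against the mesothelial nuclei of MWAT and HWAT, the 2 depots shared a set of genes. Of 13504 genes, 81 (0.600%) were 2-fold or more higher in both EWAT and NWAT than in both others, and 119 (0.881%) were 2-fold or more lower. The genes named here were chosen after their values were seen, as those with the largest such gap. Mroh2a was 319 CPM in EWAT and 378 in NWAT, against 32.7 in MWAT and 23.3 in HWAT. The collagen Col6a5 was 249 and 209 against 11.8 and 40.2, and the disintegrin-like adhesion protein Adam23 293 and 223 against 39.8 and 25.4. Both depots stood above both others in each case, as the choice of these genes required. Emx2, a homeobox factor of the urogenital system, was 28.3 and 15.2 CPM, with 0 in MWAT and 1.08 in HWAT (chr19:59458372-59465357). Emx2os, which overlaps it on the opposite strand, was 80.3 and 54.1 against 0.352 and 4.48, and their reads may not be told apart. Hoxa9 was 0.880 CPM in MWAT with 0 of 6468024 UMIs in HWAT, and Hoxc9 was 12.7 and 10.7 against 2.46 in MWAT. Nxph1, one of the given markers, was 168 and 82.3 CPM in MWAT and HWAT. The others of the 10 were the transcript Gm47416 (13.7 and 12.97 CPM) and the collagen Col6a4 (15.3 and 9.39 CPM).

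On the lower side, Ctnnd2, a delta-catenin, was 19.1 CPM in EWAT and 9.84 in NWAT against 246 in MWAT and 182 in HWAT. The ETS factor Etv1 was 10.2 and 6.26 against 209 and 94.3. Calcb, a calcitonin gene-related peptide, had 3 and 1 UMIs in EWAT and NWAT and 18.1 and 15.2 CPM in the others. Reg3g, an antimicrobial lectin of gut epithelium, had no UMI in EWAT or NWAT, which allows up to 0.955 and 1.34 CPM, and was 88.7 and 154 CPM in MWAT and HWAT. After thinning, 4.47% of MWAT and 4.35% of HWAT mesothelial nuclei held Reg3g, not above the 5.58% and 6.34% of endothelial nuclei there, so it is not read as expression by the mesothelial nuclei. The remaining 6 were Hmgcll1, Bcl11a, Slc35f1, Thsd7b, Khdrbs2 and Edil3, each with at most 2 UMIs in EWAT and in NWAT. After thinning, 0.658% of MWAT and 0.435% of HWAT mesothelial nuclei held Slc35f1, under the 2.66% and 1.41% of endothelial nuclei. Hmgcll1 (0.554% against 1.14%) and Calcb (0.623% against 0.634%) in MWAT and Bcl11a (0.669% against 0.704%) in HWAT were also not above them. These values are not read as mesothelial expression either. The other shares of these genes were above the endothelial ones.

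Within each depot the mesothelial nuclei were not uniform. The Fano factor (variance over mean of UMIs per nucleus, after thinning to 1000) had a median of 1.055 over 4385 genes in EWAT and 1.05 over 4384 in NWAT. Slpi, a secreted inhibitor of leukocyte proteases, had 15.9 in EWAT and 10.3 in NWAT. Its UMIs per thinned EWAT nucleus ran from 0 in 28.4% of nuclei through a median of 3 to 98, and in NWAT from 0 in 24.9% through a median of 3 to 64. Slpi was thus detected in most nuclei and concentrated in some. Endothelial nuclei held it in 17.4% and 15.3% after thinning, and its summed level was 7166 and 5919.6 CPM, against 391 in HWAT. Nxph1 (3.44) and Rbfox1 (3.30) were also among the 10 most variable genes of EWAT, together with Crip1 (2.99), the abundant nuclear RNA Malat1 (17.3), the ribosomal RNA-derived transcript Gm42418 (4.64) and the adipocyte transcripts Fabp4 (3.72) and Cfd (3.48). Ccl21a, a chemokine of lymphatic vessels and lymph node stroma (8.27), and Tagln, a smooth muscle protein (4.71), were found in 43 and 63 of 1318 thinned EWAT nuclei, with 57.1% and 47.6% of their UMIs in 10 nuclei. Their shares were 3.26% and 4.78%, and those of endothelial nuclei 2.98% and 15.1%. In NWAT the muscle genes Ckm (16.0), Mylpf (11.9), Tnnc2 (9.90), Acta1 (8.27), Tnnt3 (8.22), Myh4 (7.55) and Tpm1 (6.74) joined Malat1 (17.8), Cxcl13 (15.6) and Slpi. Ckm was in 52 of 921 thinned nuclei with 55.3% of its UMIs in 10, and the other nuclei of NWAT had 186 CPM of it. The share of Ckm in NWAT was 5.65% in mesothelial and 6.72% in endothelial nuclei.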

How the data were processed

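Nuclei of 5 depots were profiled by 10x 3' v3 single-nucleus RNA sequencing, 1 pooled library each. The deposited files hold raw UMI counts per gene and nucleus, for which the file headers name Cell Ranger 6.0.1, on mm10 per the submitters' processing notes. Use of strand and introns in the counting is not given in the sources used here. Nuclei with under 200 genes or over 10% mitochondrial UMIs were left out. Counts of the chosen nuclei were summed per depot and given as CPM with exact Poisson intervals, ratios with exact conditional intervals and shares with Clopper-Pearson intervals. Log2 ratios had 0.5 counts added to both sums. No test across genes was possible with 1 library a depot, so a gene was called at a ratio of 2 or more with 50 or more UMIs over both sums. Named were the 15 largest ratios each way, the 15 genes highest over the other nuclei with 100 UMIs in each sum, the 10 with the highest Fano factor per depot, the given and rule genes, and list genes. List genes within 2-fold, and gate values, were picked for the text after their values were seen. Members and lists were chosen with earlier results of these data known. No doublets were removed; the alternative assumed 0.8% per 1000 nuclei. The calling and interval steps were tested on simulated gene sums, drawn as Poisson counts, the same model that the intervals assume. The choice of nuclei and the summing were not tested on simulated data. Coordinates are GENCODE vM21 on GRCm38. Python 3.11.15, numpy 2.4.6, scipy 1.17.1, pandas 2.3.3, scikit-learn 1.9.0 and matplotlib 3.10.9 were used.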

Additional observations from a re-analysis of the deposited data

Results flagged for a closer look

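A few genes had opposite directions in the mesothelial nuclei and in another class of nuclei of the same 2 libraries, with counting intervals that lay on opposite sides of 1. The difference was not tested, since each depot was 1 library. The EWAT over NWAT ratio of Ltbp2 was 24.2 in mesothelial nuclei and 0.635 (0.536 to 0.75) in adipocyte nuclei. For Slc26a3 it was 0.0423 in mesothelial and 7.99 (3.64 to 20.7) in adipocyte nuclei, and for Robo1 0.204 and 1.68 (1.41 to 2.01). Pcdh9 had 0.282 in mesothelial, 1.43 (1.07 to 1.93) in adipocyte and 12.8 (8.11 to 21.2) in endothelial nuclei.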

How the results depend on the processing

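No paired analysis was possible because each depot had 1 library, and no replicate could be left out. The share of chosen nuclei was 7.59% in EWAT and 7.43% in NWAT. It became 8.17% in EWAT with a marker minimum of 3, 6.48% and 6.76% with a minimum of 6, 5.89% and 6.06% with no excluded UMI allowed, 3.19% and 3.12% with at most 2 adipocyte UMIs, and 6.17% and 6.73% when nuclei were thinned to 1000 UMIs before the rule. The 418 EWAT-higher genes (3.97% of 10534) became 249 after thinning, 716 with 20 or more UMIs, 263 with 100 or more and 160 at 3-fold. The 243 NWAT-higher genes (2.31%) became 488, 142 and 57 under the last 3 of these. Of the list genes 39 were EWAT-higher, and 24 after thinning, 25 with 100 or more UMIs and 20 at 3-fold. Of the list genes 27 were NWAT-higher, and 12 at 3-fold. How many genes were compared also changed with thinning and with the UMI limits, and is not given here. These counts are thus not shares of the same set of genes. Thinning turned the log2 ratio of Fgf13 to -0.32, of Bmper to -0.75 and of Trpm3 to -0.85, and subtracting free RNA turned Bmper to -0.43. The cause was not tested. Of 85 named or listed genes called at 2-fold, 38 kept the call under all 12 settings. The call was kept by 46 with few adipocyte UMIs, 46 after thinning and 84 without the nuclei rich in muscle transcripts. The last alternative was chosen after seeing the data. A call also needed the minimum of UMIs over both sums, so a gene with too few UMIs lost it even if still past 2-fold. Esrrg was such a gene. The numbers of kept calls thus do not separate loss of UMIs from loss of the ratio. With the assumed doublets removed 71 kept the call, and 65 with no excluded UMI allowed. Krt19, Eln, Hoxd8, Tgfb1, Postn, Fosb, Trpm3, Esrrg, Rarres1, Trim59, Eid2 and Gatm lost the call under both of these settings. Free RNA was estimated at 15.4% and 11.9% of UMIs in EWAT and NWAT. Genes of few UMIs, such as Trim59, Eid2, Esrrg and Rarres1, had wide counting intervals.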
